A study of Homo sapiens with 2 samples.

Results

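The genes described here encode the basement membrane, the thin protein sheet under epithelia, and the interstitial matrix around it. Their expression was compared on 2 oligonucleotide arrays of PC-3 cells, 1 for cells transfected with a short hairpin RNA (shRNA) vector against SHISA2 (the knockdown array) and 1 for cells with a control shRNA vector (the control array), which the titles name siSHISA2 and siCONTROL. No other treatment is stated for either. PC-3 is a human prostate cancer cell line derived from a bone metastasis. SHISA2 belongs to the Shisa family, first known in Xenopus from an endoplasmic reticulum protein that holds back Frizzled and FGF receptors, and the study asked what its knockdown does to gene expression. How many cultures, hairpins or clones stand behind each array, and when cells were harvested, is not stated in the labels. The list holds 43 named genes in 7 classes, and 41 of them are among the 19775 genes with a probe set of their own. Each gene is represented by its brightest probe set (by mean log2 signal), and each log2 ratio is knockdown over control.

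A gene counted as measured if its signal lay above a floor of 47.9, the median of all signals, in at least 1 array, and 32 of the 43 did. Another 9 (COL4A6, LAMA1, NID2, FBLN2, COL15A1, COL5A1, EFEMP1, FBN2 and LOX) stayed under the floor on all of their 20 probe sets, with highest signals of 38.3 in knockdown cells and 36.4 in control cells. LAMA3 and COL17A1 have no probe set of their own in the annotation used and were not analysed here. With 1 array a group there are no replicates, no test was possible and every value below describes these 2 arrays. In place of replicate error, the spread between probe sets of a gene is given: for the 2 brightest probe sets of a gene, their log2 ratios differed with an SD that, divided by the square root of 2, came to 0.286 over 6428 genes. It was 0.155 over 3088 genes when signals under 387.3, the 75th percentile, were raised to that value. This spread leaves out differences between cultures and between arrays. In RNA from whole cultures, fewer cells of a kind and less RNA per cell cannot be told apart.

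Basement membranes are built on networks of type IV collagen and laminin. Type IV collagen chains wind into trimers inside the cell, and laminins assemble from an alpha, a beta and a gamma chain. Nidogens and the heparan sulfate proteoglycans perlecan and agrin link both networks, and cells hold on to them through integrins and dystroglycan. Epithelial cells make much of this sheet themselves, whereas fibrillar collagens, fibronectin and tenascin belong mainly to the stroma.

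The type IV collagen genes lie head to head in pairs, so that a pair shares the stretch between its start sites. COL4A1 and COL4A2 on chromosome 13 are 126 bases apart, COL4A4 and COL4A3 on chromosome 2 are 135 apart, and COL4A6 and COL4A5 on the X chromosome are 379 apart in RefSeq (GRCh38.p14). The sequences below are shown because COL4A1 and COL4A2 were both lower in the knockdown array, because FN1 was lower on its 4 brightest probe sets, and because the laminin genes LAMB1 and LAMB3 differed in opposite directions. The first is the whole stretch between the COL4A1 and COL4A2 starts (chr13:110307158-110307283, plus strand, read towards COL4A2). The others are the 250 bases before the start of FN1 (chr2:215436069-215436318, minus strand), LAMB1 (chr7:108003162-108003411, minus strand) and LAMB3 (chr1:209652426-209652675, minus strand). All read 5′ to 3′, and capitals mark matches on either strand to the CCAAT box, to the GC box (letters GGGCGG), to the cyclic AMP response element (letters TGACGTCA) and to the AP-1 element (letters TGACTCA).
COL4A1 and COL4A2: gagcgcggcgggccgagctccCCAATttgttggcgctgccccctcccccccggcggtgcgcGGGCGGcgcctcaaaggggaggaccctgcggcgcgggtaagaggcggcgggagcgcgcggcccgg
FN1: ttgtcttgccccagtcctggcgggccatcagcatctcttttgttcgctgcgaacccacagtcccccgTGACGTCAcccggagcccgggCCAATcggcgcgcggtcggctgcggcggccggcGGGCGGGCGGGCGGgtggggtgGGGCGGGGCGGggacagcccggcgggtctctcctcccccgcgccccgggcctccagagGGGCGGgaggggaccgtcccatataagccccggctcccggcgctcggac
LAMB1: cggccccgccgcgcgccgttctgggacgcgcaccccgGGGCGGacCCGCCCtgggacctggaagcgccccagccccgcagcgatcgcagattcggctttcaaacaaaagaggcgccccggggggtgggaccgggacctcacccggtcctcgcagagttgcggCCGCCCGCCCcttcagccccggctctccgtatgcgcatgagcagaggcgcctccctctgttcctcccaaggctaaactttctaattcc
LAMB3: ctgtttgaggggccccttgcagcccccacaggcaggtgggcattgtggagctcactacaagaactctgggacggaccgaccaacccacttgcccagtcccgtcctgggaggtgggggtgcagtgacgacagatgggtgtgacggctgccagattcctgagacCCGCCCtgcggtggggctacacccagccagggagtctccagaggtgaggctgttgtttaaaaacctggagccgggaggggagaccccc

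The collagen stretch held 1 CCAAT and 1 GGGCGG match. The FN1 stretch held 1 CCAAT, 1 TGACGTCA and 6 partly overlapping GGGCGG matches, the LAMB1 stretch 4 GGGCGG matches and the LAMB3 stretch 1. Over all 35116 RefSeq promoters of the same 250-base length, 32.0% held CCAAT, 42.6% GGGCGG, 1.65% TGACGTCA and 4.20% TGACTCA. RefSeq gave 47 promoters for 37 of the 43 genes, of which 14 (29.8%) held CCAAT, 33 (70.2%) GGGCGG, 2 (4.26%) TGACGTCA and 2 (4.26%) TGACTCA. The promoters with TGACGTCA were those of FN1 and LTBP1, and those with TGACTCA belonged to LAMA3 and to another start of LAMB3. A match of letters does not show binding.

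Most of the matrix genes were lower in the knockdown array. Of the 32 measured genes, 26 had a log2 ratio below 0 and 6 above 0, with a median of -0.51, against 47.8% below 0 and a median of 0.01 over all 12931 measured genes. In all, 14 were at least 1.5-fold lower, where 3.77% of all measured genes were, and 2 were at least 1.5-fold higher, where 5.02% were. At 2-fold, 2 matrix genes were lower (0.565% of all genes) and 0 were higher (0.920% of all genes). The matrix genes were chosen with earlier results of these data known. Their counts beside shares of all genes, here and below, are descriptions and not tests. The count of 26 below 0 was the same after median centring, quantile normalization and removal of a loess trend. Of all genes past 1.5-fold, 488 were lower and 649 higher as deposited, while 619 (4.79%) were lower and 492 (3.80%) higher after loess and 588 and 528 after quantile normalization. COL4A4 and COL13A1 passed the floor through the control array only, so that they could only come out lower.

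**Figure D1:**
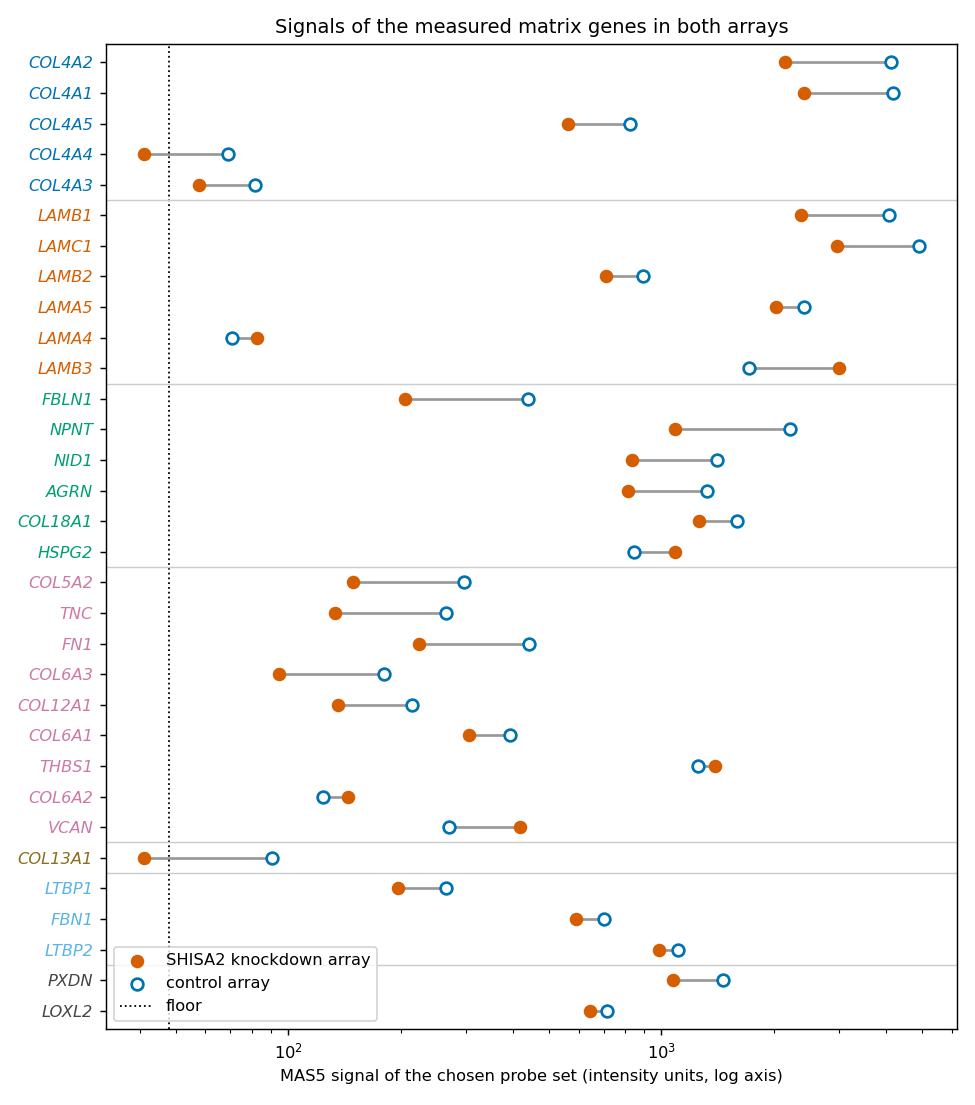
Signals of the 32 measured matrix genes, each on its brightest probe set. Filled points show the knockdown array, open points the control array, the horizontal axis is logarithmic and the dotted line is the floor of 47.9. Gene names are coloured and grouped by class, and in 26 of the 32 genes the filled point lies to the left.

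Both signals were above 387.3 for 18 of the matrix genes, of which 15 were below 0, against 3809 of the 7650 genes this bright. Of the 18, 7 were at least 1.5-fold lower, compared with 1.37% of the 7650 genes this bright, and 1 was at least 1.5-fold higher, compared with 0.732%. The 7 were COL4A1, COL4A2, LAMB1, LAMC1, NID1, AGRN and NPNT, and the higher gene was LAMB3. Ranked from the lowest ratio among the 7650 genes, NPNT stood at place 4, COL4A2 at 7, COL4A1 at 25, LAMB1 at 27, NID1 at 36, LAMC1 at 38 and AGRN at 45. LAMB3 stood at place 12 from the highest. SHISA2 itself read 1506 in knockdown cells and 3536 in control cells (log2 ratio -1.23).

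**Figure D2:**
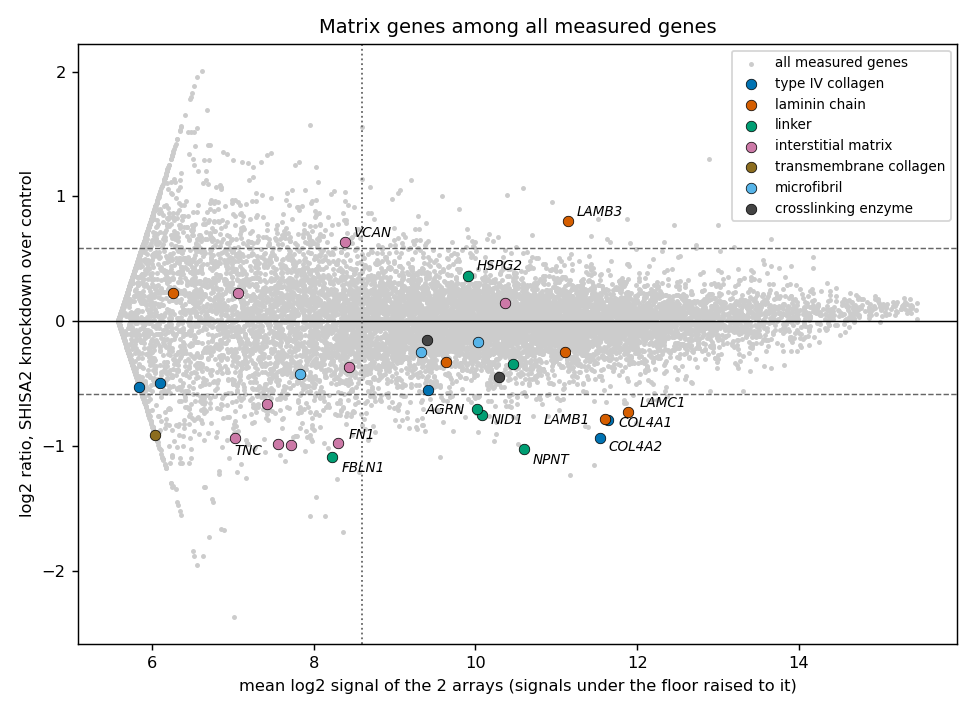
Log2 ratio of knockdown over control against the mean log2 signal for all 12931 measured genes (grey) and the measured matrix genes (coloured by class). Dashed lines mark 1.5-fold in either direction and the dotted line a signal of 387.3. LAMB3 lies above the upper dashed line, and NPNT, COL4A2, COL4A1, LAMB1 and LAMC1 lie below the lower one at bright signals.

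All 5 measured type IV collagen genes were lower in the knockdown array, with a median log2 ratio of -0.55. For COL4A4, which passed the floor through the control array only, that direction was fixed. COL4A1 and COL4A2 encode the chains of the type IV collagen trimer found in nearly every basement membrane. COL4A2 read 2149 in knockdown cells and 4111 in control cells, a log2 ratio of -0.94, and 133.3 against 250.3 on its other probe set (-0.91). COL4A1 read 2417 in knockdown cells and 4180.2 in control cells (-0.79). Its dimmer probe set read 342.1 against 352.6 (-0.04), so the probe sets of COL4A2 gave close ratios and those of COL4A1 did not. On the brightest probe sets the ratios of COL4A2 and COL4A1 differed by -0.15. In units of the spread of such a difference this was -0.36 over all genes and -0.67 at bright signals.

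The remaining type IV chains form trimers of more restricted tissues, such as those of the kidney glomerulus and smooth muscle. COL4A5 read 563.6 in knockdown cells and 825.4 in control cells (-0.55, 1.46-fold lower), just short of 1.5-fold. Its head-to-head neighbour COL4A6 was under the floor in both arrays, with a highest signal of 20.6 in the knockdown and 27.1 in the control array. COL4A3 read 57.8 against 81.7 (-0.50). These signals were close to the floor, as were those of COL4A4, which read 41.2 in knockdown cells and 69.0 in control cells and was at least 1.44-fold lower.

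Laminin chains differed in both directions: 4 of 6 measured chains were lower and 2 higher, with a median log2 ratio of -0.29. LAMB1 and LAMC1, the beta and gamma chains shared by several widespread laminins, were the lowest. LAMB1 read 2362 in knockdown cells and 4064.5 in control cells (-0.78), and 1486 against 2642 on its other probe set (-0.83). LAMC1 read 2952 in knockdown cells and 4894 in control cells (-0.73), and 1315 against 1502 on its other probe set (-0.19). The ratios of LAMC1 and LAMB1 differed by 0.05.

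LAMA5, the alpha chain that joins LAMB1 and LAMC1 in the main laminin of mature epithelial basement membranes, read 2033 in knockdown cells and 2410.4 in control cells (-0.25). LAMB2, a beta chain that can take the place of LAMB1, read 711.1 against 893.2 (-0.33). On the brightest probe sets the ratio of LAMB1 lay below that of LAMA5 (difference -0.54), as did that of LAMC1 (difference -0.48). In units of the spread of such a difference these were -1.33 and -1.20 with the spread of 0.286 over all genes. With the spread of 0.155 at bright signals they were -2.46 and -2.21. On the other probe set of LAMC1 the order was reversed, at -0.19 against -0.25 for LAMA5. The other probe set of LAMB1 stayed below LAMA5, at -0.83. LAMA4, an alpha chain known from vessels and muscle, was dim and read 82.5 in knockdown cells and 70.7 in control cells (0.22).

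LAMB3 stood on the other side. It encodes the beta chain of the laminin that anchors epithelia such as the epidermis to their base through hemidesmosomes. Its probe set read 2988 in knockdown cells and 1713 in control cells (0.80, 1.74-fold higher). The ratio of LAMB3 exceeded that of LAMB1 by 1.59, which was 3.92 times the spread of such a difference over all genes and 7.26 times that at bright signals. LAMB3 has 1 probe set, so that its value has no second reading, and the alpha chain of its trimer (LAMA3) was not analysed here.

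Of the linker proteins and proteoglycans, 5 of 6 measured genes were below 0, with a median log2 ratio of -0.73. NPNT, the integrin ligand nephronectin, read 1087 in knockdown cells and 2215 in control cells (-1.03, 2.04-fold lower) on its only measured probe set. FBLN1, the basement membrane and elastic fibre protein fibulin-1, read 206.0 in knockdown cells and 438.5 in control cells (-1.09, 2.13-fold lower). Both dimmer probe sets of FBLN1 with signals above the floor in each array were also lower, at 84.3 against 201.8 (-1.26) and 55.6 against 115.6 (-1.06), while the remaining measured probe set was at least 1.22-fold higher, at 58.6 against 7.0.

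NID1 and AGRN were lower by smaller amounts. NID1, the nidogen that bridges laminin and type IV collagen, read 834.7 in knockdown cells and 1405.5 in control cells (-0.75), and 87.9 against 116.1 on its other measured probe set (-0.40). AGRN, the proteoglycan agrin, read 811.6 in knockdown cells and 1322 in control cells (-0.70). The other measured probe sets of AGRN read 583.8 against 648.8 (-0.15) and 93.5 against 62.0 (0.59), so that this gene had no settled direction across its probe sets. COL18A1, the precursor of endostatin, read 1258.5 in knockdown cells and 1595 in control cells (-0.34) and -0.18 on its other probe set. HSPG2, which encodes perlecan, was the linker on the higher side, at 1089 in knockdown cells and 845.0 in control cells (0.37, 1.29-fold).

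Interstitial matrix genes were mostly lower too, with 6 of 9 below 0 and a median log2 ratio of -0.66, but all except THBS1 had at least 1 signal under 387.3. FN1, fibronectin, read 224.6 in knockdown cells and 441.8 in control cells (-0.98). It also read 177.1 against 424.9 (-1.26), 182.6 against 382.3 (-1.07) and 145.0 against 353.3 (-1.28) on the next brightest probe sets, and 54.3 against 31.9 on the dimmest measured one, which was at least 1.13-fold higher. The 4 brightest probe sets of FN1 therefore lay between -1.28 and -0.98, although all 4 are of the _x_at or _s_at kind, whose probes may match more than a single transcript.

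Minor fibrillar and beaded-filament collagens followed. COL5A2, a chain of the collagen that nucleates collagen fibrils, read 148.8 in knockdown cells and 295.8 in control cells (-0.99), and 101.6 against 190.6 on its other probe set (-0.91). COL6A3, a chain of the beaded filaments of type VI collagen, read 94.5 in knockdown cells and 180.8 in control cells (-0.94). The partner chains of COL6A3 were less clear: COL6A1 read 305.6 against 394.0 (-0.37), and COL6A2 read 144.6 against 123.7 (0.23) on its brighter and 82.4 against 162.8 (-0.98) on its dimmer probe set. COL12A1, a collagen that decorates fibril surfaces, read 136.1 in knockdown cells and 215.2 in control cells (-0.66). Another probe set of COL12A1 read 99.7 against 58.9 (0.76) and the dimmest measured one was at least 1.06-fold lower, so its direction was not settled.

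Among the adhesion-modulating proteins, TNC, tenascin-C, read 133.8 in knockdown cells and 265.5 in control cells (-0.99) on its only measured probe set. VCAN, the large chondroitin sulfate proteoglycan versican, read 418.2 in knockdown cells and 269.6 in control cells (0.63, 1.55-fold higher). All 4 measured probe sets of VCAN were higher, the others at 341.5 against 254.0 (0.43), 146.6 against 89.6 (0.71) and 88.9 against 69.9 (0.35). VCAN and TNC thus differed in opposite directions. THBS1, thrombospondin-1, read 1388 in knockdown cells and 1255.5 in control cells (0.14), with its other measured probe sets between 0.03 and 0.61.

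**Figure D3:**
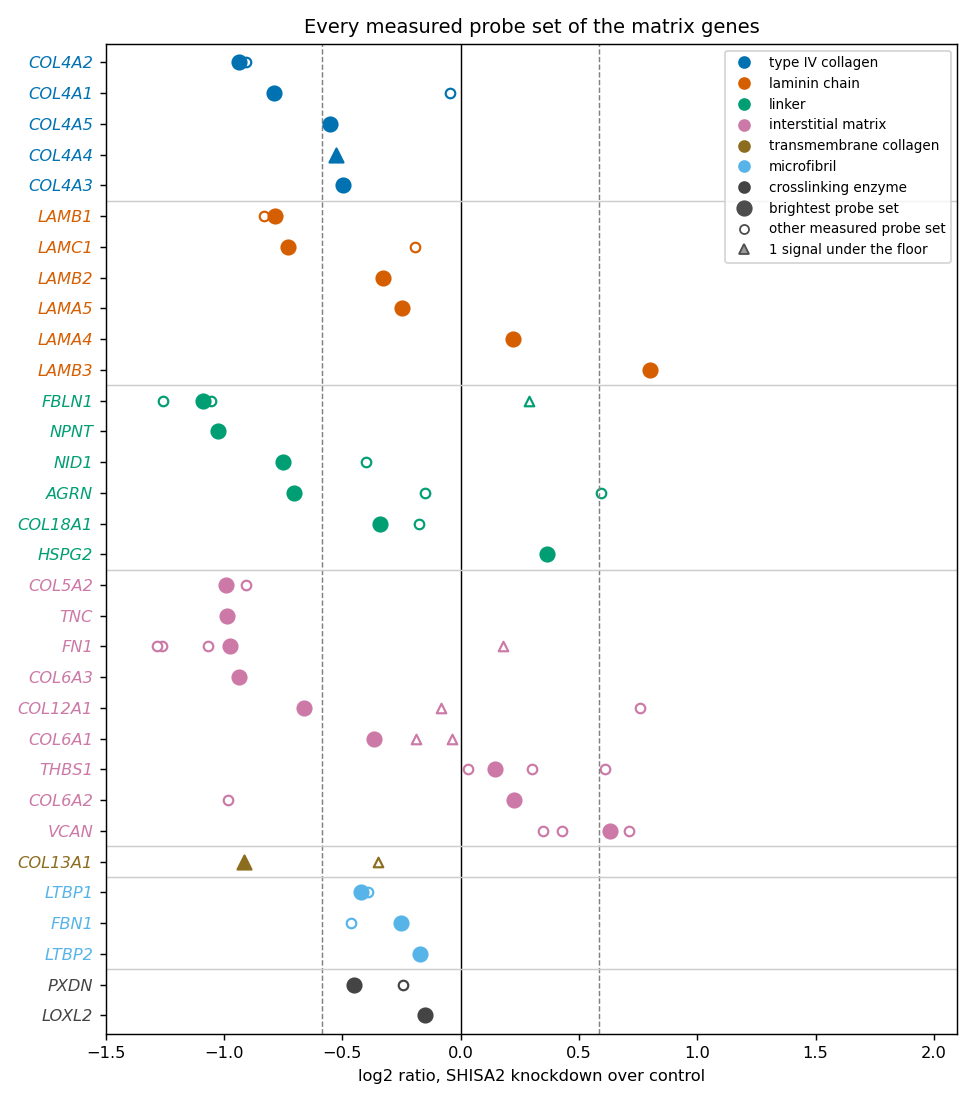
Log2 ratio of knockdown over control for all 64 measured probe sets of the 32 measured matrix genes. Large filled symbols are the brightest probe set of a gene, small open ones the others, triangles have 1 signal under the floor, and dashed lines mark 1.5-fold. All probe sets of COL4A2, LAMB1 and COL5A2 lie below 0 and all of VCAN above 0, while those of AGRN, COL12A1, COL6A2, FBLN1 and FN1 lie on both sides of 0.

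The measured genes of the smaller classes were all below 0. For COL13A1 this direction was fixed, because its measured probe sets passed the floor through the control array only. COL13A1, a collagen that spans the plasma membrane, read 41.2 in knockdown cells and 90.4 in control cells and was at least 1.89-fold lower, and at least 1.28-fold lower on its other measured probe set. The microfibril genes were FBN1, fibrillin-1, at 589.6 against 701.6 (-0.25), LTBP1 at 197.3 against 264.2 (-0.42) and LTBP2 at 987.3 against 1111 (-0.17). LTBP1 stores latent TGF-beta in the matrix, and neither it nor the other microfibril genes reached 1.5-fold. Of the crosslinking enzymes, PXDN, the peroxidase that ties type IV collagen trimers together, read 1073.5 in knockdown cells and 1465 in control cells (-0.45). LOXL2, a lysyl oxidase, read 643.9 against 713.8 (-0.15).

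The measured probe sets of the matrix genes were also counted by sign. Of the 64 measured probe sets of the matrix genes, 48 were below 0, against 11729 (47.9%) of the 24507 measured probe sets of all genes. Several were measured for 20 of the genes, and in 15 of these all had 1 sign. All were at least 1.5-fold lower in COL4A2, LAMB1 and COL5A2. Neither count has a share over all genes beside it, so they are descriptions only. Among the 15, the measured probe sets of COL13A1 and the dimmer ones of COL6A1 passed the floor through the control array only, which fixed their sign. The control probe sets for beta-actin gave a 3' to 5' ratio of 4.79 in knockdown cells and 5.004 in control cells, and those for GAPDH 1.36 and 1.55. The part of RNA integrity in the disagreement between probe sets was not tested.

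Genes that make, modify and secrete collagen had a median log2 ratio of -0.14. Of 17 measured genes of 19 listed, 13 were below 0, where 47.8% of all measured genes were. At least 1.5-fold apart in either direction were 0, where 3.77% of all measured genes were lower and 5.02% higher. With 17 genes a count of 0 lies close to those shares. The largest ratios were -0.41 for P3H1 and -0.34 for CRTAP, partners in prolyl 3-hydroxylation, -0.28 for PCOLCE, an enhancer of procollagen cleavage, and -0.27 for the lysyl hydroxylase PLOD2. CRTAP was not settled across its probe sets, which ran from -0.34 to 0.82.

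Of 51 other matrix genes 27 were measured, with 20 below 0 (47.8% of all measured genes) and a median of -0.24. At 1.5-fold, 4 were lower (3.77% of all measured genes) and 1 was higher (5.02% of all measured genes). Of the 27, 9 passed the floor in 1 array only, which fixed their direction: 4 of those below 0, with LOXL3, and 5 of those above 0, with THBS4. SPARC, a matricellular protein that binds collagen, read 56.8 in knockdown cells and 293.1 in control cells (-2.37). MATN3, a cartilage matrix adaptor protein, read 59.5 against 130.6 (-1.13). MATN2, a matrilin of many tissues, read 160.0 against 303.0 (-0.92). THBS4 read 101.7 in knockdown cells and 45.3 in control cells and was at least 2.12-fold higher. The remaining gene past 1.5-fold, picked out only after its value was known, was LOXL3, a lysyl oxidase, at 40.3 against 80.0 and at least 1.67-fold lower. SPARC and MATN3 were close to the floor in the knockdown array.

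Among matrix receptors outside the integrins, 9 of 12 were measured, with 6 below 0 (47.8% of all measured genes) and a median of -0.14. The heparan sulfate proteoglycan SDC4, a coreceptor for fibronectin, read 6449 in knockdown cells and 4147 in control cells (0.64). It was the 1 receptor past 1.5-fold, where 5.02% of all measured genes were higher by that much. SDC3 had a log2 ratio of 0.48, GPC1 -0.46 and the agrin receptor LRP4 -0.41.

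**Figure D4:**
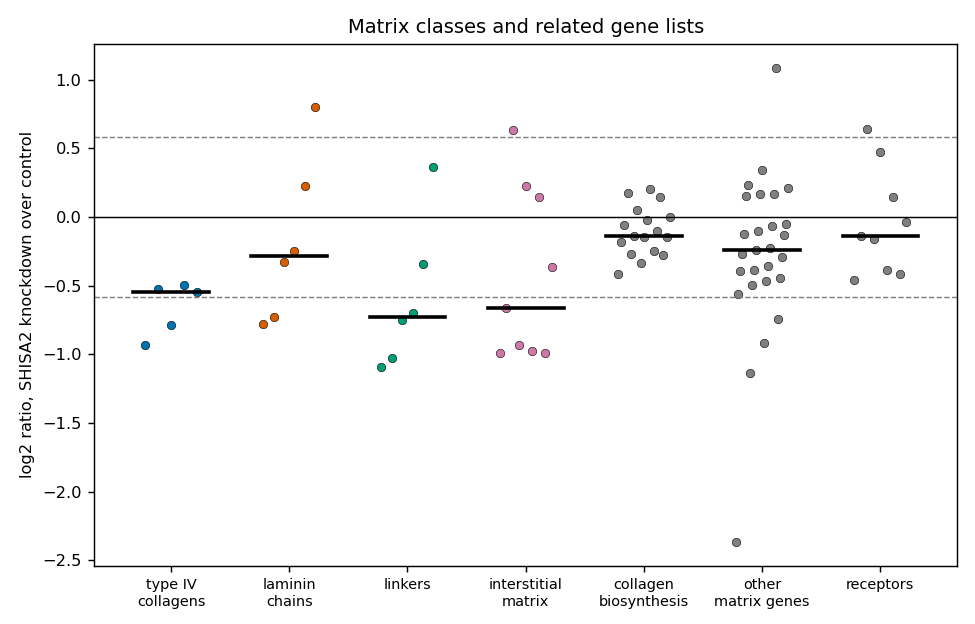
Log2 ratio of knockdown over control for each measured gene of the 4 main matrix classes and of 3 related lists, with the median of each as a bar and 1.5-fold as dashed lines. Medians lie at -0.55 for type IV collagens, -0.29 for laminin chains, -0.73 for linkers, -0.66 for interstitial matrix, -0.14 for collagen biosynthesis, -0.24 for other matrix genes and -0.14 for receptors.

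The 4 main classes therefore overlapped: single genes ran from -0.94 to -0.50 among type IV collagens, from -0.78 to 0.80 among laminin chains, from -1.09 to 0.37 among linkers and from -0.99 to 0.63 in the interstitial matrix. No difference between classes was tested. The type IV collagens were the main class without a measured gene above 0, and they stayed so under each of the 3 other scalings. Of their 5 measured genes, COL4A4 passed the floor through the control array only, which fixed its direction.

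Markers of the cell line and of stromal cells were read beside these values. Of 6 epithelial genes 5 were measured, with log2 ratios of 0.44 for KRT7, -0.38 for CLDN4, -0.20 for KRT8 and -0.18 for EPCAM, and CDH1 was not above the floor. The epithelial list summed to 21789 in knockdown cells and 22451 in control cells. Most of that sum came from KRT18 alone, at 17533 in knockdown cells and 18340 in control cells (-0.06). Of 10 fibroblast markers 4 were measured, and COL1A2, COL3A1, LUM, PDGFRA, PDGFRB and THY1 were not above the floor in either array. COL1A1 read 577.0 in knockdown cells and 787.2 in control cells (-0.45, with 0.92 on a dimmer probe set). FAP, DCN and ACTA2 had log2 ratios between 0.15 and 0.20, those of FAP and DCN with the control signal under the floor. The fibroblast list summed to 1031.5 in knockdown cells and 1150.2 in control cells. Of 8 endothelial markers 4 were measured, with ratios of 0.75 for CDH5, 0.43 for EGFL7, 0.22 for PECAM1 and -0.06 for ESAM, while VWF, KDR, TEK and CLDN5 were not above the floor. PECAM1 was not settled across its measured probe sets, which ran from -0.56 to 0.22. The endothelial list summed to 1003.6 in knockdown cells and 920.6 in control cells. The part of other cell kinds in the matrix values was not tested.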

How the data were processed

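Total RNA of 1 knockdown and 1 control sample was labelled with biotin and hybridised to 1 array each (groups from the titles). The deposited values are probe-set intensities on a linear scale, made with MAS5 per the submitters' processing notes, with no version given in the sources used here. The mean after trimming 2% at each end was 500.1 in both arrays, and no further scaling was applied. Of 54675 probe sets, 62 were controls, 41097 carried 1 gene symbol, 1801 several and 11777 were unlisted. Probe sets with several symbols or none name no gene.

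Signals under the floor of 47.9 were raised to it before log2 was taken, and a ratio with 1 signal under the floor is a bound ("at least"). Near background, MAS5 signals are noisy. Fold thresholds of 1.5 and 2 are sizes, not tests, and no p-value was computed. All members are named, those past 1.5-fold with each measured probe set, and from each other list up to 4 genes with the largest ratios and all past 2-fold. KRT18 was named in addition because it made up most of its list's signal. Members, classes, lists and sequence motifs were chosen with earlier results of these data known. Sequences come from RefSeq (GRCh38.p14). The procedure was tested on simulated data. Python 3.11.15, numpy 2.4.6, pandas 2.3.3 and statsmodels 0.14.6 were used.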

Additional observations from a re-analysis of the deposited data

How the results depend on the processing

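The precision of every value is limited by 1 array a group and by signals near background, and the spread between probe sets does not stand for replicate error. Of the 16 genes past 1.5-fold, 7 (COL4A2, LAMB1, LAMB3, NPNT, COL5A2, COL6A3 and TNC) stayed past it in the same direction under every alternative that gave them a value. LAMB3, NPNT, COL6A3 and TNC have 1 measured probe set each and so had no second one to read.

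Where results moved, the causes were not tested unless the alternative itself changes which genes or probe sets enter. The median over the matrix genes (-0.51) was -0.56 after quantile normalization, -0.58 after loess (span 0.3), -0.44 with the floor at the 25th percentile (11.3, 38 genes), -0.29 with it at the 75th (387.3, 22 genes), -0.41 with no floor and a pseudocount of 1 (41 genes), -0.39 as the mean over probe sets, -0.30 on second brightest probe sets (20 genes) and -0.74 without _x_at and _s_at probe sets (20 genes). Matrix genes at least 1.5-fold lower (14) numbered 7 of 22 with the floor at 387.3, 9 of 32 with averaged and 6 of 20 with second probe sets. Over all genes these shares were 1.35%, 3.16% and 4.82%. Matrix genes at least 1.5-fold higher (2) numbered 4 of 38 with the floor at 11.3 and 6 of 41 with no floor. Of all genes, 14.5% and 17.1% were higher by that much. With the floor at 387.3, with averaged and with second probe sets 1 matrix gene was higher, beside 0.758%, 4.45% and 6.19% of all genes. Those at least 2-fold lower (2) numbered 4 after median centring, 5 after quantile normalization, 6 after loess, and 1 with the floor at 387.3 and with averaged probe sets. Those at least 2-fold higher (0) numbered 1 with the floor at 11.3 and 4 with no floor. For the 2-fold counts under these alternatives no share over all genes is given.

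By class, the type IV median (-0.55) was -0.79 with the floor at 387.3. The laminin median (-0.29) was -0.51 on second probe sets (2 chains) and -0.73 without shared probe sets (3 chains). The linker median (-0.73) was -0.52 with the floor at 387.3, -0.34 with no floor, -0.42 averaged, -0.29 on second probe sets and -0.89 without shared ones. The interstitial median (-0.66) changed sign to 0.043 with the floor at 387.3, where 4 genes were left. Of these, only THBS1 had both signals above 387.3. In FN1, COL6A1 and VCAN the lower signal was raised to that value, which brought their ratios to -0.19, -0.025 and 0.11. The interstitial median was -0.43 with the floor at 11.3, -0.41 with no floor, -0.38 averaged, -0.19 on second probe sets and -0.94 without shared ones. Single genes past 1.5-fold that changed sign were AGRN (0.59 without shared probe sets) and COL12A1 (0.0055 averaged, 0.76 on its second probe set). No paired analysis was possible because each group has 1 array.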
